A study of Mus musculus with 12 samples.

Results

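The miRNAs described here are those best known from skeletal and heart muscle, pancreas, and brain or eye, as they were measured in whole mouse liver. They were taken by name: any arm of miR-1, miR-133a, miR-133b and miR-206 for muscle, of miR-375, miR-216a, miR-216b and miR-217 for pancreas, and of miR-9, miR-124 and miR-184 for brain and eye. Of the 386 miRNA rows in the table, 6 carried such a name: miR-133a-3p, miR-1a-3p, miR-133b-3p, miR-375-3p, miR-184-3p and miR-9-5p. No row was listed for miR-206, miR-216a, miR-216b, miR-217 or miR-124.

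The livers came from 12 wild-type male mice of the C57BL/6 strain, killed fasted at 12 weeks, and their small RNA was sequenced. Mothers and, from weaning on day 21, sons ate either a control chow (7% simple carbohydrates, 3% lipids) or an obesogenic diet (10% simple carbohydrates, 20% lipids, plus sweetened condensed milk). The 4 groups, with 3 libraries each, are named by 2 letters, C for control and O for obesogenic, the mother's diet first and the son's second: CC, CO, OC and OO. The labels name no litter, though 1 number of unstated meaning recurs in the titles, in that of OC replicate 2 and that of OO replicate 3. P-values here cover only the spread from library to library, which may be partly technical.

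miRNAs are short RNAs that lower the output of messenger RNAs that pair with their seed, bases 2 to 8 from the 5′ end. miR-1 and miR-133a are made together from shared primary transcripts in heart and skeletal muscle, and miR-206 and miR-133b from another shared transcript in skeletal muscle. miR-375 is best known from pancreatic islets, where it restrains insulin secretion, and it is also made in other endocrine and epithelial cells, whereas miR-216a, miR-216b and miR-217 mark the acinar pancreas. miR-9 and miR-124 act in neurons and their precursors, and miR-184 is abundant in cornea and lens and present in brain. Hepatocytes are not known as a main source of any of them.

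The RefSeq table for GRCm38.p6 held the mature sequence of 3 of the 6, printed here to show which seed each read carries, with the seed in capitals and the rest in lower case.
miR-133b-3p: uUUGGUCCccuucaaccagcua
miR-184-3p: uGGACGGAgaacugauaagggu
miR-9-5p: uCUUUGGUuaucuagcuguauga
The seeds of these 3 differ from each other. miR-133a-3p, whose sequence is not printed here, is known to share the seed of miR-133b-3p and to differ from it only near the 3′ end, so reads could be split between these 2 rows in ways that the sources used here do not describe.

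In GENCODE vM21 on GRCm38, Mir1a-1 lies on chromosome 2 at 180389048 to 180389124 and Mir133a-2 at 180398379 to 180398482, both on the plus strand, outside other annotated genes and 9254 bases apart. miR-1a-3p and miR-133a-3p each have a further hairpin elsewhere in the genome, and the reads cannot be assigned to either. Mir133b lies on chromosome 1 at 20682769 to 20682887, plus strand, within an exon of Gm28653, a long noncoding RNA gene that also spans Mir206 at 20679010 to 20679082. Mir375 lies on chromosome 1 at 74900658 to 74900721 and Mir184 on chromosome 9 at 89802260 to 89802328, both on the minus strand and outside other genes. miR-9-5p comes from 3 hairpins: Mir9-1 on chromosome 3 (88215598 to 88215686, in an intron of Gm3764), Mir9-2 on chromosome 13 (83738814 to 83738885, in an exon of C130071C03Rik) and Mir9-3 on chromosome 7 (79505264 to 79505353, in an intron of Mir9-3hg).

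Values are in CPM, reads scaled by the authors to a fixed library total. The totals ran from 5.45 to 22.2 M reads (median 13.2 M), inferred, as are all read numbers here, from the step between the values of a library. The tissue label was borne out by miR-122-5p, the hepatocyte miRNA, which stood between 19991 and 28851 CPM. miR-192-5p stood between 222649 and 295048 CPM. The 6 miRNAs were minor by comparison, with miR-133a-3p and miR-375-3p ranking 88 and 89 of 386 by mean CPM and miR-9-5p 371.

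The muscle miRNAs varied more between livers of the same diet group than almost any other row. miR-133a-3p, which is known from the growth of muscle precursor cells, stood at 743, 70.8 and 419 CPM in CC, at 88.8, 352 and 84.4 in CO, at 393, 54.3 and 440 in OC and at 1137, 20.5 and 40.7 in OO, replicates 1 to 3 in order. Both the highest and the lowest of the 12 values belonged to OO, and they lay 55.5-fold apart. The values fell into 2 sets of 6 libraries with a gap from 88.8 to 352 CPM between them, and the upper set held CC replicates 1 and 3, CO replicate 2, OC replicates 1 and 3 and OO replicate 1. Every diet group was thus present in both sets.

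miR-1a-3p, which promotes muscle differentiation, stood at 32.2, 2.68 and 24.8 CPM in CC, at 4.81, 21.8 and 9.91 in CO, at 19.0, 2.09 and 18.0 in OC and at 49.2, 0.743 and 2.39 in OO. Its highest and lowest libraries were those of miR-133a-3p, 66.2-fold apart, and the same 6 libraries were its 6 highest. Its widest gap on the log2 scale lay elsewhere, from 4.81 to 9.91 CPM, with 7 libraries above it, CO replicate 3 among them. miR-133b-3p, the partner of miR-206 on its transcript, stood at 21.4, 1.87 and 7.52 CPM in CC, at 2.67, 10.6 and 1.10 in CO, at 13.2, 1.92 and 12.8 in OC and at 34.6, 0.79 and 1.05 in OO. As for miR-133a-3p, the gap of miR-133b-3p, from 2.67 to 7.52 CPM, parted the same 6 libraries from the other 6. Its lowest read number was 6, in CO replicate 3, where the exact 95% Poisson interval ran from 0.404 to 2.4 CPM (counting error only).

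**Figure D1:**
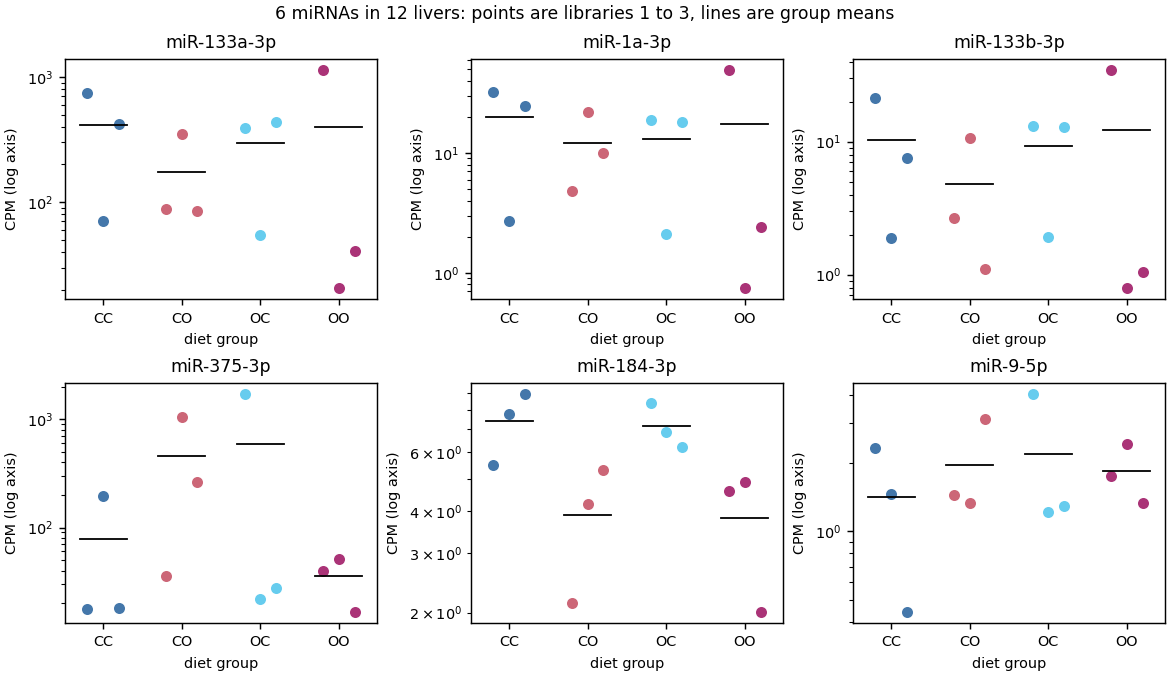
CPM on a log axis for each of the 6 miRNAs in the 4 diet groups, with 1 point per library and a line at the group mean. The 3 muscle miRNAs share their 6 highest libraries, and miR-375-3p has 2 libraries far above the rest, at 1061 and 1734 CPM. In CPM miR-184-3p is lower, by a narrow margin, in all 6 obesogenic-fed than in all 6 control-fed sons.

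Against miR-133a-3p, the other 2 muscle miRNAs varied far less than any of the 3 did in level. The ratio of miR-133a-3p to miR-1a-3p lay between 8.52 and 27.6 with a median of 21.9, a 3.24-fold range beside the 55.5-fold range of miR-133a-3p itself. The ratio of miR-133a-3p to miR-133b-3p lay between 25.9 and 76.7 with a median of 33.8. The ratio of the 2 scarcer ones, miR-1a-3p to miR-133b-3p, ranged further, from 0.941 to 9 with a median of 1.47. CO replicate 3 gave the 8.52, the 76.7 and the 9, and it was the shallowest library. Read numbers of different miRNAs also depend on how well each is captured in a library, which was not measured here, so these ratios say nothing of the true amounts.

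Because the libraries formed 2 sets by miR-133a-3p and miR-133b-3p, no correlation over all 12 is given. On the log2(CPM + 1) scale, Pearson's r of the 3 muscle pairs was 0.79 to 0.93 among the upper 6 libraries and 0.27 to 0.85 among the lower 6. Spearman's rho was 0.49 to 0.71 and 0.43 to 0.89. Among the upper 6, exact permutation p for r was 0.031 to 0.083 (two-sided), which became 0.10 to 0.12 after Benjamini-Hochberg adjustment over 7 correlations, and for rho it was 0.14 to 0.36 (adjusted 0.32 to 0.49). Among the lower 6 it was 0.017 to 0.62 for r (adjusted 0.10 to 0.73) and 0.033 to 0.42 for rho (adjusted 0.23 to 0.49, exact permutation). Without the 2 libraries farthest from the median in each set, 4 were left. Among the upper ones r was then -0.96 to -0.02. Splitting the libraries by miR-133a-3p and then taking out extremes narrows the range, which by itself tends to lower r. Neither the sets of 6 nor the 4 libraries left can thus decide whether the muscle miRNAs vary together. Among the lower ones r went from 0.85 to 0.78 for miR-133a-3p with miR-1a-3p, from 0.70 to -0.01 for miR-133a-3p with miR-133b-3p and from 0.27 to 0.70 for miR-1a-3p with miR-133b-3p. Each set held 3 libraries of each maternal diet, too few for a value within it.

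**Figure D2:**
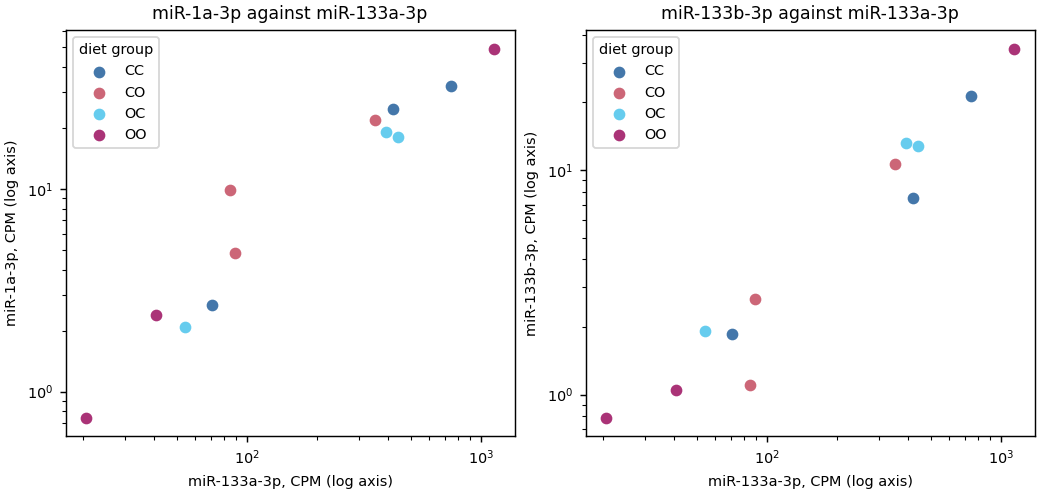
miR-1a-3p (left) and miR-133b-3p (right) against miR-133a-3p in CPM, both axes log, 1 point per library and coloured by diet group. The upper 6 libraries, from 352 to 1137 CPM of miR-133a-3p, stand apart from the lower 6, from 20.5 to 88.8 CPM, and each diet group has points in both.

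By root mean square difference, no row outside the 6 came close to this pattern. That measure also counts the size of the swings between libraries. Outside the 6, the highest SD within diet groups (log2) was 1.10, for miR-6240, against 1.69 or more for the muscle miRNAs. A row of the same shape but with smaller swings would thus differ too. Whether other rows share the shape was not tested. Among rows outside the 6, the profile nearest to miR-133a-3p was that of miR-381-3p, with a root mean square difference of 1.51 (log2, over 12 libraries), while a flat row would differ by 1.76. The nearest members were far closer, at 0.439 for miR-1a-3p and 0.514 for miR-133b-3p. miR-381-3p was also the nearest outside row for miR-1a-3p (1.30, flat row 1.52) and for miR-133b-3p (1.18, flat row 1.44), and the next in order was miR-3963 for miR-133a-3p (1.55) and miR-1a-3p (1.31) and miR-204-5p for miR-133b-3p (1.21). The fixed list of other muscle miRNAs (miR-208a, miR-208b, miR-499 and miR-486) had 2 rows, both of miR-486, which red cells also hold in quantity. The row shared by miR-3107-5p and miR-486-5p stood at 2280 CPM in OO replicate 1, the library highest in miR-133a-3p, at 1670 in OO replicate 2, the lowest, and reached 5594 in CO replicate 1. The 8 rows of the smooth muscle and stellate cell list, led by miR-143-3p, summed to 36881 CPM in OO replicate 1 and 36101 in OO replicate 2, beside a range of 31654 to 48489 over all libraries. The red cell rows summed to 2870 to 9019 CPM, the leukocyte rows to 1755 to 4096 and the endothelial rows to 15584 to 28052 over the 12 libraries. In whole tissue, fewer cells of a type and less RNA per cell cannot be told apart. Skeletal muscle miR-206 was not listed, which does not show its absence, since the filter on rows is not given.

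miR-375-3p had the widest spread within diet groups of all 386 rows. It stood at 17.7, 197 and 18.0 CPM in CC, at 35.8, 1061 and 266 in CO, at 1734, 21.9 and 27.5 in OC and at 40.0, 51.2 and 16.6 in OO. OC replicate 1 and CO replicate 2 were the highest, and the other 10 libraries ranged from 16.6 to 266 CPM. In OC replicate 1 it was the row of rank 42, whereas by mean it ranked 89. Both of these libraries also belonged to the upper set for the muscle miRNAs, but OO replicate 1, the highest for muscle, held 40.0 CPM of miR-375-3p.

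Most of the listed epithelial miRNAs, 4 of 6, had their 2 highest values in these same livers, though no test was run. The share of all rows that did so was not counted. OC replicate 1 was also the highest library for rows of other kinds, such as let-7e-5p (461 CPM) and miR-142-5p (3098 CPM). The 2 rows outside the 6 with the profile nearest to miR-375-3p were miR-141-3p and miR-200c-3p, members of the miR-200 family, which maintains the epithelial state by repressing Zeb1 and Zeb2. Each had a root mean square difference of 1.66 (log2, over 12 libraries), against 2.23 for a flat row. miR-141-3p stood at 259 CPM in OC replicate 1 and 221 in CO replicate 2, above each of the other 10, of which the lowest held 60.3. miR-200c-3p stood at 26.1 and 22.0 CPM, and at 4.43 to 14.5 in the other 10. Over the 6 rows of the fixed list of biliary and other epithelium, the sum was 896 and 874 CPM in these 2 libraries and 398 to 684 in the other 10, and the rows that did not have them as the 2 highest were miR-200a-5p, highest in CO replicates 3 and 1, and miR-429-3p, highest in CO replicate 2 and OO replicate 2. By diet group, that sum ranged from 424 to 673 CPM in CC, 485 to 874 in CO, 398 to 896 in OC and 401 to 684 in OO. Beyond these 2 libraries the order varied. The sum was 485 CPM in CO replicate 3 and 673 in CC replicate 2, with 266 and 197 CPM of miR-375-3p. It was 684 in OO replicate 2, with 51.2 CPM of miR-375-3p. The part of epithelial cells in the miR-375-3p result was not tested.

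Rows of the pancreas and endocrine list gave mixed values. The acinar miRNAs miR-216a, miR-216b and miR-217 had no row. The table held 0 values at 0 and its filter on rows is not given, so this does not show their absence from any library. miR-7a-5p, abundant in islet cells, stood at 16.5 CPM in OC replicate 1 and 17.0 in CO replicate 2, within the 12.0 to 35.2 CPM of the other 10 libraries. miR-7a-1-3p, from the other arm of a miR-7a hairpin, was highest of the 12 in OC replicate 1 at 16.5 CPM and stood at 12.2 in CO replicate 2. miR-148a-3p, abundant in the pancreas but also in the liver, stood at 79510 CPM in OC replicate 1, within the 72093 to 89162 of the other 10, and at 95301 in CO replicate 2, the highest of the 12. miR-148a-5p was highest in CO replicate 3 and both arms of miR-802 in OO replicate 3, and the list's remaining row is miR-141-3p, described above. Summed over its 7 rows, the list was highest in CO replicate 2 at 96942 CPM and stood at 80902 in OC replicate 1.

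**Figure D3:**
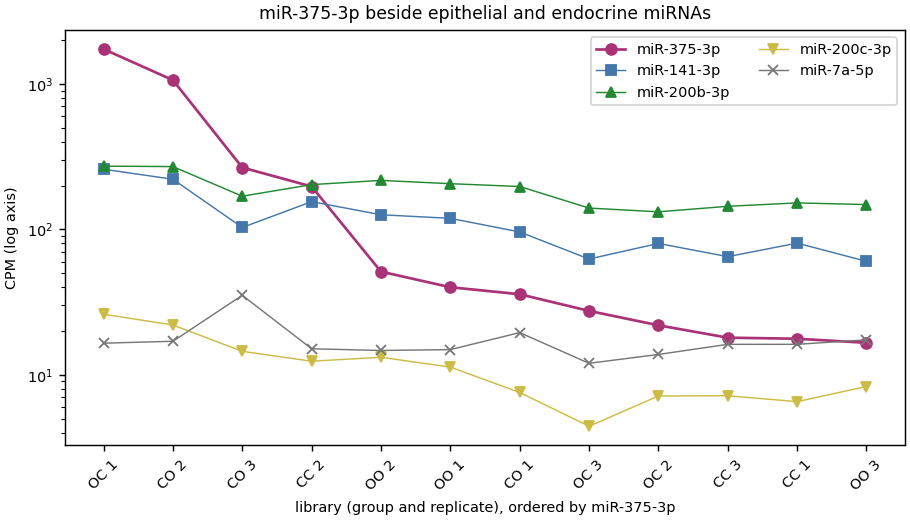
CPM on a log axis of miR-375-3p, the epithelial miR-141-3p, miR-200b-3p and miR-200c-3p and the endocrine miR-7a-5p in the 12 libraries, ordered from the highest to the lowest miR-375-3p. The epithelial miRNAs drawn are highest in the 2 libraries at the left, over a far narrower range than miR-375-3p. Of the listed epithelial rows not drawn, miR-200a-3p had the same 2 highest libraries, and miR-200a-5p and miR-429-3p did not. miR-7a-5p peaks at 35.2 CPM in CO replicate 3.

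These 4 miRNAs were the 4 most variable rows of the table. The SD within diet groups on the log2(CPM + 1) scale was 2.39 for miR-375-3p, 2.04 for miR-133a-3p, 1.80 for miR-1a-3p and 1.69 for miR-133b-3p, whereas the median of all 386 rows was 0.242. Only 6 rows exceeded 1, and the next in order were miR-6240 at 1.10 and miR-215-5p at 1.01. Differences within diet groups made up 89.6% of the total spread of miR-133a-3p, 92.8% of that of miR-1a-3p, 92.2% of that of miR-133b-3p and 76.4% of that of miR-375-3p, with a median of 66.9% over all rows. The share was 89.5% for miR-9-5p and 41.4% for miR-184-3p, so a high share was not particular to these 4.

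**Figure D4:**
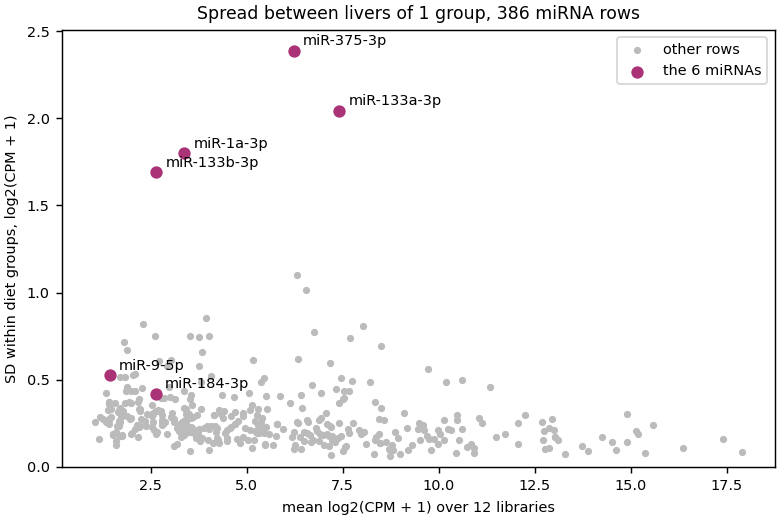
SD within diet groups against mean log2(CPM + 1) over 12 libraries, 1 point for each of 386 rows. miR-375-3p and the 3 muscle miRNAs lie at 1.69 or above, over all other rows, while miR-184-3p (0.419) and miR-9-5p (0.526) lie lower, at ranks 57 and 30 of 386 and above the median of 0.242.

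The brain and eye miRNAs were scarce and far steadier. miR-184-3p stood at 5.49, 7.76 and 8.95 CPM in CC, at 2.14, 4.21 and 5.32 in CO, at 8.38, 6.86 and 6.21 in OC and at 4.60, 4.88 and 2.01 in OO, from 21 to 186 reads. In CPM all 6 obesogenic-fed sons lay below all 6 control-fed sons, but narrowly. CO replicate 3 stood at 5.32 CPM (29 reads) and CC replicate 1 at 5.49 (73 reads). Divided by their median-of-ratios factors, 0.856 and 0.994, CO replicate 3 stands above CC replicate 1, so the separation depends on the scaling. miR-9-5p, the neural miRNA, stood at 2.33, 1.47 and 0.442 CPM in CC, at 1.45, 1.34 and 3.12 in CO, at 4.06, 1.22 and 1.30 in OC and at 1.76, 2.42 and 1.34 in OO, from 4 to 90 reads. Its 4 groups overlapped, and the lowest value, 4 reads in CC replicate 3, had an exact 95% Poisson interval of 0.12 to 1.13 CPM (counting error only).

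No relation between the 2 was detected: over the 12 libraries Pearson's r was 0.04 (permutation p = 0.89, adjusted 0.89 over 7 correlations) and Spearman's rho -0.08 (permutation p = 0.82, adjusted 0.82). Without the 2 libraries farthest from the median of miR-184-3p, OO replicate 3 and CO replicate 1, r was -0.21. Within control mothers r was -0.30 (exact permutation p = 0.61, n = 6) and within obesogenic mothers 0.45 (exact permutation p = 0.33, n = 6). The row nearest in profile to miR-184-3p was miR-5099 (root mean square difference 0.347, flat row 0.531, log2 over 12 libraries), followed by let-7e-5p at 0.375. For miR-9-5p it was miR-10b-5p (0.179, flat row 0.454), a miRNA encoded among the Hox genes, followed by miR-193b-3p at 0.298. Of the other nervous tissue miRNAs, led by miR-128-3p at 91.1 CPM or more and 114 CPM on average, 15 rows were listed.

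The first comparison asked whether the sons' own diet went with a different level, averaged over maternal diet, with 6 libraries against 6. miR-184-3p had the lowest p of the 6, at 7.28 ± 1.33 CPM in control-fed sons against 3.86 ± 1.43 after obesogenic feeding (SD, n = 6 a side). Its log2 change was -0.81 (SE 0.219, 95% interval -1.29 to -0.33). By limma it had an unadjusted p of 0.0032 and a Benjamini-Hochberg adjusted p of 0.126 over all 386 rows, so it did not pass the threshold of 0.05. Over the alternative settings its limma adjusted p ranged from 0.0854 to 0.255 and its log2 change from -0.94 to -0.48. Of the 6 miRNAs, 0 passed by limma and 1 had an unadjusted p under 0.05, beside 3 of all 386 rows that passed (0.777%) and 57 with an unadjusted p under 0.05. In CPM, groups that did not overlap were seen for 1 of the 6, miR-184-3p, and for 10 of all 386 rows (2.59%).

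The estimated change of miR-184-3p was close after either maternal diet, though the interval of the difference was wide. In sons of control mothers it stood at 3.89 ± 1.62 CPM in CO and 7.40 ± 1.76 in CC (log2 change -0.82, SE 0.310, limma adjusted p = 0.214), and in sons of obesogenic mothers at 3.83 ± 1.58 CPM in OO and 7.15 ± 1.12 in OC (-0.81, SE 0.310, limma adjusted p = 0.673; SD, n = 3 each). The difference between these 2 changes was 0.01 (95% interval -0.95 to 0.97, limma adjusted p = 0.992). Groups of 3 that did not overlap were common, at 22.0% of all rows for CO against CC and 15.5% for OO against OC. By mean CPM the order was CC, OC, CO and OO, and of the neighbours in it only OC and CO did not overlap. A closing letter of unstated meaning is the same in the titles of the 6 control-fed sons and of OO replicate 2, and differs in those of the other obesogenic-fed sons. With 1 such library, a factor behind the letter and the sons' diet cannot be told apart.

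For the muscle miRNAs the spread left little to be seen of the sons' diet. miR-133a-3p stood at 353 ± 259 CPM in control-fed sons against 287 ± 433 after obesogenic feeding (SD, n = 6 a side), a log2 change of -1.05 with a 95% interval from -3.21 to 1.12 (limma adjusted p = 0.689). miR-1a-3p stood at 16.5 ± 12.0 against 14.8 ± 18.5 CPM (log2 change -0.52, interval -2.43 to 1.39, limma adjusted p = 0.821). miR-133b-3p stood at 9.79 ± 7.56 against 8.48 ± 13.3 CPM (-0.79, interval -2.59 to 1.01, limma adjusted p = 0.714). These intervals reach changes of more than 2 on the log2 scale, while the median interval over all rows reached 0.30 to either side of its change, so changes of that size are not excluded. miR-375-3p stood at 336 ± 689 against 245 ± 410 CPM, with a log2 change of 0.38 of the opposite sign to its difference in mean CPM (interval -2.15 to 2.92, limma adjusted p = 0.93), and miR-9-5p at 1.80 ± 1.26 against 1.90 ± 0.723 CPM (0.13, interval -0.46 to 0.72, limma adjusted p = 0.892).

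Maternal diet, averaged over the sons' diet, was compared in the same way. miR-375-3p stood at 266 ± 403 CPM with control mothers against 315 ± 695 with obesogenic ones (SD, n = 6 a side), while its log2 change was -0.68 (95% interval -3.22 to 1.85), again with means and log2 change of opposite sign. miR-184-3p stood at 5.65 ± 2.45 against 5.49 ± 2.19 CPM (-0.03, interval -0.51 to 0.45), the narrowest interval of the 6. The log2 change was -0.44 for miR-133a-3p (interval -2.60 to 1.73), -0.62 for miR-1a-3p, 0.10 for miR-133b-3p and 0.17 for miR-9-5p. By limma 0 of the 6 passed and 0 had an unadjusted p under 0.05, beside 0 of all 386 rows that passed (0%) and 27 with an unadjusted p under 0.05. Groups did not overlap for 0 of the 6 and 0.777% of all rows. Title prefixes split fully with maternal diet, so a factor behind them and maternal diet cannot be told apart.

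**Figure D5:**
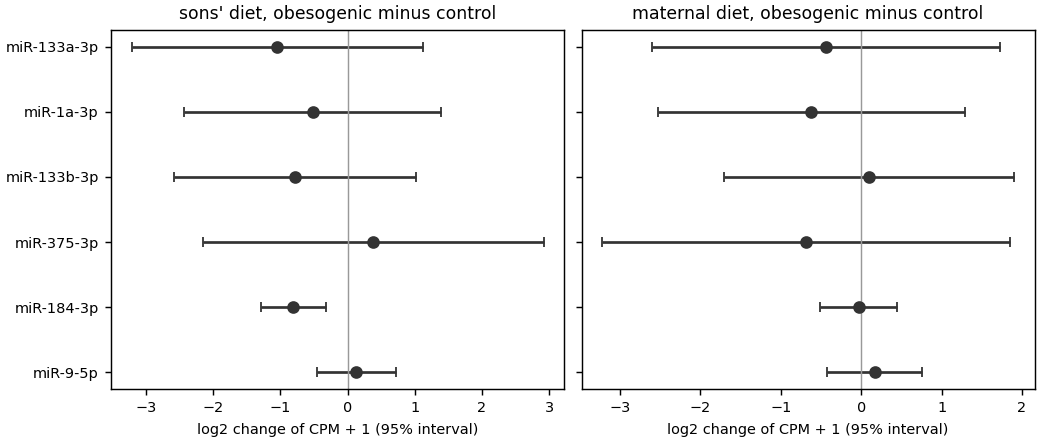
log2 change of CPM + 1 with its 95% limma interval for the 6 miRNAs, for the sons' diet (left) and maternal diet (right), obesogenic minus control, 6 libraries against 6. The interval leaves out 0 for miR-184-3p and the sons' diet alone, before adjustment over 386 rows, and is widest for miR-375-3p.

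The differences of miR-375-3p between single groups were large and rested on few libraries. Its log2 change was 2.40 for CO against CC (SE 1.63, limma adjusted p = 0.514), -1.64 for OO against OC (SE 1.63, limma adjusted p = 0.929), 1.34 for OC against CC and -2.70 for OO against CO (SE 1.63, limma adjusted p = 0.396). The difference between the changes after either maternal diet was -4.04 (SE 2.31, 95% interval -9.11 to 1.02, limma adjusted p = 0.773). Without CO replicate 2 and OC replicate 1 together it was -0.87. Without OC replicate 1 alone the change of OC against CC was -0.69 and that of OO against OC 0.39. By mean CPM the order was OC (595 ± 987), CO (454 ± 538), CC (77.7 ± 104) and OO (35.9 ± 17.6), and each neighbouring pair overlapped (SD, n = 3 each).

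By limma 0 of the 6 miRNAs passed in CO against CC (0.777% of all rows), OO against OC (0.518%), OC against CC (0%), OO against CO (0%) or the interaction of both diets (0%). miR-184-3p alone had an unadjusted p under 0.05, in CO against CC, beside 63 of all 386 rows, and in OO against OC, beside 28 of them. Groups did not overlap for 0 of the 6 in OC against CC (8.81% of all rows) or OO against CO (19.2%). Among the fixed lists of related tissues, 0 of 2 other muscle rows, 0 of 7 other pancreas and endocrine rows and 0 of 15 other nervous tissue rows passed by limma for the sons' diet, with median log2 changes of 0.19, 0.15 and -0.07 beside -0.02 over all rows. For maternal diet the counts were also 0, with medians of -0.26, -0.10 and 0.04 beside 0.08.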

How the data were processed

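Per the labels' protocols, liver RNA was extracted with miRNeasy columns and made into TruSeq small RNA libraries. Reads were handled with Bowtie 1.2.3, per the submitters' processing notes. Not given in the sources used here: how reads matching several miRNAs were counted, the filter on rows, the reference and the build. CPM, the unit the authors deposited, covers 386 rows with 0 values at 0. Every value was a whole multiple of 1 step per library (tolerance 0.001 reads), and the scaling total divided by the step gave depths and read numbers. These are inferred values, and the intervals on them rest on that; columns summed to 0.866 to 1.17% above the scaling total, for a reason not given in the sources used here. Columns were matched to libraries by the number in each sample's description.

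limma 3.58.1 in R 4.3.3 was fitted to log2(CPM + 1) of all rows, with 1 mean per group, a trend of variance on level, two-sided contrasts and Benjamini-Hochberg adjustment over 386 rows. This scale understates changes of rows at low CPM, and the fit pulls the spread of very variable rows towards that of others. The fit was tested on simulated data in which the spread of the most variable rows was capped, so not at the spread of miR-375-3p and the muscle miRNAs. No count model was run, since the values are CPM and the inferred reads were not taken as counts. Permutation tests (100000 resamples, or exact for 6 libraries), likeness and plots used matplotlib 3.10.9, numpy 2.4.6, scipy 1.17.1 and pandas 2.3.3 in Python 3.11.15. The correlations had been planned over 12 libraries. Those within sets of 6 were added for the muscle miRNAs after the values were seen.

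Named were all 6 miRNAs, the 2 rows nearest to each in profile, 2 hepatocyte miRNAs and leading rows of the fixed lists. miR-200b-3p, miR-6240 and miR-215-5p were named after their values were seen. Members and lists were chosen with earlier results of these data known. Alternatives changed the pseudocount, the low-value filter, the scaling, the libraries, the groups fitted and the variance model.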

Additional observations from a re-analysis of the deposited data

Results flagged for a closer look

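miR-375-3p in OC replicate 1 stood at 1734 CPM, far above the other 5 libraries of sons of obesogenic mothers, whose highest was 51.2 CPM. Its gap to the next library, on the log2(CPM + 1) scale, took up more of the range than Dixon's 95% limit for 6 values allows. Chance flags about 1 in 20 such groups, and this was 1 of 24 examined, over 6 miRNAs and 4 arms of 6 libraries. The share of epithelial cells in that liver was not measured.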

How the results depend on the processing

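In each of the 7 comparisons the count of the 6 miRNAs that passed was 0 under every alternative run for it: pseudocounts of 0.25 and 5, a filter at a mean of 10 CPM, median-of-ratios scaling, each library of its own groups left out in turn, a fit of only the 2 groups compared (where a comparison has 2) and, chosen after seeing the data, robust empirical Bayes, no mean-variance trend and CO replicate 2 with OC replicate 1 left out together. The filter left out miR-133b-3p, miR-184-3p and miR-9-5p, TMM scaling was not run, and DESeq2 and edgeR were not used. Several log2 changes that had not passed changed sign, as leaving out 1 library gave -0.19 to 1.40 for miR-375-3p and -0.04 to 0.32 for miR-9-5p (sons' diet), -1.31 to 0.12 for miR-133a-3p, -0.60 to 0.48 for miR-133b-3p, -0.17 to 0.13 for miR-184-3p and -0.02 to 0.31 for miR-9-5p (maternal diet). It gave -0.69 to 2.47 for miR-375-3p in OC against CC, -2.73 to 0.39 in OO against OC and -0.28 to 0.32 for the interaction of miR-184-3p. Without CO replicate 2 and OC replicate 1 together, miR-375-3p was -0.69 in OC against CC and 0.39 in OO against OC, and miR-9-5p -0.10 for maternal diet. The interaction of miR-184-3p was -0.09 with median-of-ratios scaling, and its correlation with miR-9-5p -0.0018 with a pseudocount of 0.25. The cause was not tested. No paired analysis was possible because replicate numbers here follow accession order and the labels pair no libraries, beside 1 title number shared by OC replicate 2 and OO replicate 3. With as few as 4 reads, miR-9-5p is limited by depth, whereas miR-133a-3p, with at least 426 reads in every library, is not.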
